A study of Mus musculus with 59 samples.

Results

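Pcsk1n, Scand1 and Zfp771 are 3 genes of the 57180 gene rows counted in mouse brain, taken by symbol. They were chosen by their measured differences between double heterozygous and wild-type animals, which ran in opposite directions in cortex and hippocampus. All 3 matched 1 row each and all 3 passed the filter on low counts, among 20394 genes tested in cortex, 20162 in hippocampus and 21354 over the animals that gave both tissues. The series asked how loss of 1 copy of Mrpl40, a protein of the mitochondrial ribosome, and of Slc25a1, the mitochondrial citrate carrier, acts alone and together on brain RNA. Both genes lie in the mouse region that matches the human 22q11.2 microdeletion. Poly(A) RNA was sequenced from 30 male mice in 59 libraries. Cortex gave 9 libraries labelled Mrpl40 +/+, Slc25a1 +/+ (wild type), 7 labelled Mrpl40 +/+, Slc25a1 -/+ (called Slc25a1 het here), 7 labelled Mrpl40 -/+, Slc25a1 +/+ (Mrpl40 het) and 7 labelled -/+ at each gene (double het). Hippocampus gave 8, 7, 7 and 7 in the same order, and 29 animals gave both tissues. The labels used here do not state strain, age, the kind of mutation or whether any animals were pooled. Library totals ranged from 21443017 to 32120906 counts.

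The genes come from unrelated families. Pcsk1n encodes proSAAS, a small secreted precursor of neurons and endocrine cells that binds and inhibits the prohormone convertase encoded by Pcsk1 and is itself cut into peptides. The peptides BigLEN and PEN of proSAAS are ligands of the receptors encoded by Gpr171 and Gpr83. Scand1 encodes a short protein that is little more than a SCAN domain, the module through which SCAN zinc finger factors pair with each other. Zfp771 encodes a C2H2 zinc finger protein of which little is known. No shared function of the 3 is established.

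The genes lie on different chromosomes, and each promoter is shown because the 3 transcripts varied together across libraries, as described further on. The sequences are those of RefSeq on GRCm38.p6, from 250 bases before to 50 bases after the annotated start, 5′ to 3′ on the strand of the gene. Capitals mark GC boxes, the letters GGGCGG or CCGCCC, which Sp-family factors are known to bind.
Pcsk1n, chrX:7919572-7919871, plus strand: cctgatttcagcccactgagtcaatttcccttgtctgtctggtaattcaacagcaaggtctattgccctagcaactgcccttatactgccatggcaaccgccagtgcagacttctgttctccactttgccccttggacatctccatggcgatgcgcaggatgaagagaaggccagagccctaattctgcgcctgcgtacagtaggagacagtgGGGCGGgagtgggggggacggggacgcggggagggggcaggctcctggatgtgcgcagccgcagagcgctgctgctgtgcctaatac
Scand1, chr2:156312655-156312954, minus strand: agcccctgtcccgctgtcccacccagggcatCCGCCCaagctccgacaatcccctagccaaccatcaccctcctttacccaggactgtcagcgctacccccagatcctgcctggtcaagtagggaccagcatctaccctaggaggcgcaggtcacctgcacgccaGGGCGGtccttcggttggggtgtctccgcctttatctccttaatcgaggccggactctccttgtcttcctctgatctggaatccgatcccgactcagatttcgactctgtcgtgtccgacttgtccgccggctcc
Zfp771, chr7:127244276-127244575, plus strand: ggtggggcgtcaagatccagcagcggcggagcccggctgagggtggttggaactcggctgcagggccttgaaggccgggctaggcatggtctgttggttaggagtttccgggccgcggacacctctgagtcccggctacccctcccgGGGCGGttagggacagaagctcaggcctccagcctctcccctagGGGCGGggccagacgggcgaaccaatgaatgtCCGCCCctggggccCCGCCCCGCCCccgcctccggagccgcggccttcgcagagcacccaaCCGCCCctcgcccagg

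The Zfp771 window held 6 GC boxes, of which 2 overlap by a base, the Scand1 window 2 and the Pcsk1n window 1. Over all 32851 promoters of the table, 35.7% held at least 1 GC box on either strand. No window held TATAAA or TTTATA, which 13.6% of promoters held. The core of the NRF1 site, TGCGCA, was found 2 times in the Pcsk1n window and in neither of the others, and 7.8% of promoters held it. CCAAT or ATTGG, in 37.4% of promoters, and CCGGAA or TTCCGG, the core bound by ETS factors, in 14.9%, each had 1 match, in the Zfp771 window only. TGACG or CGTCA, part of the cAMP response element, had 1 match in the Zfp771 window and was held by 20.8% of promoters. The E-box CANNTG had 1 match each in the Pcsk1n and Scand1 windows and was held by 72.3%. The GC content was 58.7% for Pcsk1n, 61.3% for Scand1 and 71.7% for Zfp771, at percentiles 67.1, 73.8 and 92.6 of all promoters. No motif searched apart from the GC box was shared by all 3 windows.

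The transcripts were rich in G and C as well. The longest protein-coding transcript in GENCODE vM21 was 57.3% GC for Pcsk1n, 68.4% for Scand1 and 68.7% for Zfp771, at percentiles 88, 99.9 and 99.9 of the 20723 tested genes with a value. Their lengths were 2193, 759 and 1484 bases. The next tested genes on either side did not share the pattern of the members. They were Timm17b and Hdac6 for Pcsk1n, Phf20 and Cnbd2 for Scand1, and Zfp553 and Dctpp1 for Zfp771. Their log2 differences between double het and wild type lay between -0.077 and 0.046 in cortex and between -0.22 and 0.047 in hippocampus. On the opposite strand Pcsk1n overlaps Eras by 135 bases, and Scand1 overlaps Cnbd2 by 406 bases. Eras had a mean of 0.0161 CPM (the count scaled to library size) in cortex, and Cnbd2 had 5.36 CPM. The library kit keeps strand, but the strand setting of the counting was not stated, so that the Scand1 values are uncertain by whatever Cnbd2 reads they hold. Across libraries Cnbd2 correlated with Scand1 with r of -0.11 in cortex and -0.47 in hippocampus.

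The labels and tissues were checked first. Summed cortex markers (5 genes, all detected) ranged from 525 to 692 CPM in cortex and from 120 to 242 CPM in hippocampus. Summed hippocampus markers (6 genes, all detected) ranged from 163 to 259 CPM in cortex and from 802 to 1480 CPM in hippocampus. Cerebellar markers reached 651 CPM in hippocampus Slc25a1 het replicate 3, and choroid plexus markers 97.8 CPM in hippocampus double het replicate 6 and 72.6 CPM in hippocampus Mrpl40 het replicate 5. No measured marker gene of the 9 cell type and region lists was at 0 in all libraries of a tissue. The level of Slc25a1 went against the label in 6 animals (2 wild type, 2 Slc25a1 het and 2 double het), so that every genotype below is the labelled one, and Mrpl40 counts did not separate the labelled groups. Nothing in the labels says whether animals shared a litter or a cage.

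Pcsk1n was the most abundant of the 3. Per kilobase of transcript its mean level was 120 CPM in cortex and 76.8 in hippocampus, against 10 and 9.49 for Zfp771 and 4.54 and 4.2 for Scand1. The lowest raw count in any library was 3177 for Pcsk1n, 248 for Zfp771 and 27 for Scand1, whose 95% Poisson interval of 17.8 to 39.3 covers counting error only. Scand1 is therefore the least precise of the 3. In cortex the highest library was 8.07 times the lowest for Scand1, against 2.08 times for Pcsk1n and 2.29 times for Zfp771. In bulk tissue, fewer cells of a type and less RNA per cell cannot be told apart.

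In cortex, Pcsk1n was highest in wild type. Its lowest, median and highest libraries were 265, 333 and 350 CPM in wild type, 204, 281 and 318 in Slc25a1 het, 181, 222 and 320 in Mrpl40 het and 168, 238 and 300 in double het. Below the lowest wild-type library lay 6 of 7 double het, 6 of 7 Mrpl40 het and 3 of 7 Slc25a1 het libraries. Hippocampus showed another order, with the double het libraries on top. There the lowest, median and highest values were 131, 169 and 212 CPM in wild type, 105, 129 and 241 in Slc25a1 het, 134, 153 and 216 in Mrpl40 het and 149, 203 and 228 in double het. The groups overlapped, and 3 of 7 double het libraries lay above the highest wild-type library.

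Scand1, at a far lower level, was also highest in wild type in cortex and in double het in hippocampus. In cortex its lowest, median and highest libraries were 2.67, 5.21 and 7.28 CPM in wild type, 0.933, 3.44 and 6.15 in Slc25a1 het, 0.902, 2.41 and 4.42 in Mrpl40 het and 1.11, 1.9 and 5.5 in double het. Below the lowest wild-type library in cortex lay 5 of 7 libraries of Mrpl40 het and 5 of 7 of double het. In hippocampus the values were 1.7, 2.95 and 5.56 CPM in wild type, 1.04, 1.33 and 6.49 in Slc25a1 het, 1.83, 2.21 and 4.71 in Mrpl40 het and 2.1, 4.4 and 7.85 in double het. Here 6 of 7 double het libraries lay above the wild-type median, and 2 of them above every wild-type library.

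Zfp771 lay between the others in level, again with wild type highest in cortex and double het highest in hippocampus. Its lowest, median and highest cortex libraries were 12.2, 20.1 and 21.3 CPM in wild type, 10.9, 15.5 and 18.3 in Slc25a1 het, 9.45, 12.5 and 16.7 in Mrpl40 het and 9.33, 11.8 and 18.6 in double het. All 7 libraries of each heterozygous genotype lay below the wild-type median in cortex. In hippocampus the values were 11.5, 14.2 and 20.6 CPM in wild type, 9.19, 10.1 and 20 in Slc25a1 het, 9.69, 11.5 and 18.7 in Mrpl40 het and 12.6, 18.2 and 21.3 in double het. In double het 5 of 7 hippocampus libraries lay above the wild-type median and 1 above the highest wild-type library.

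**Figure D1:**
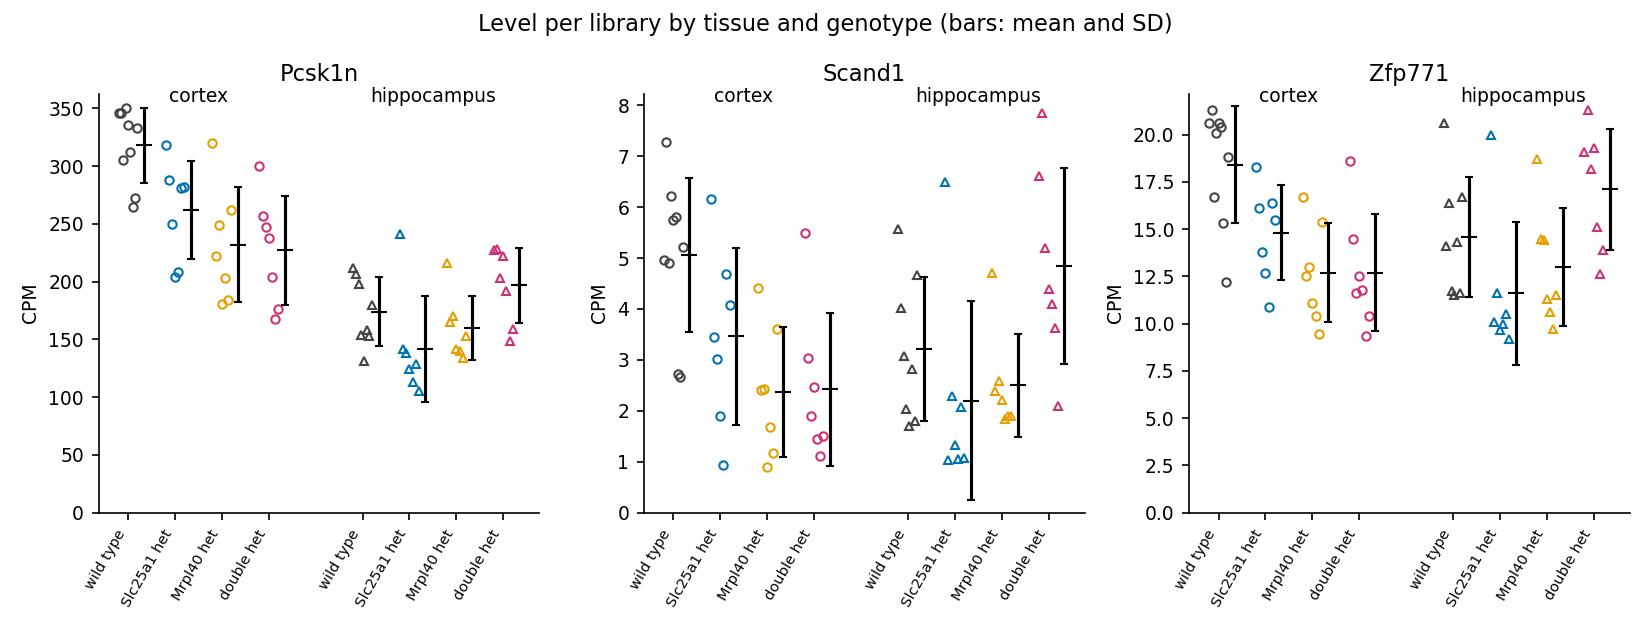
Level of Pcsk1n, Scand1 and Zfp771 in CPM for every library, by tissue (circles cortex, triangles hippocampus) and labelled genotype, with bars for the mean and SD. Wild type has the highest mean in cortex for each gene, and double het has the highest mean in hippocampus, with wide overlap between groups.

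Ranked by their means, the 8 groups of tissue and genotype stood in nearly the same order for Scand1 and Zfp771. Cortex wild type was first and hippocampus double het second, at 5.06 ± 1.52 (SD, n = 9) and 4.84 ± 1.92 CPM (n = 7) for Scand1 and at 18.4 ± 3.09 and 17.1 ± 3.21 CPM for Zfp771. Hippocampus Slc25a1 het was last, at 2.2 ± 1.96 CPM for Scand1 and 11.6 ± 3.79 CPM for Zfp771 (n = 7). No neighbours in either order differed by more than the SD of either group. For Pcsk1n all cortex groups stood above all hippocampus groups, from 318 ± 32.2 CPM (n = 9) in cortex wild type to 142 ± 45.9 CPM (n = 7) in hippocampus Slc25a1 het. Only the first step of that order, from cortex wild type to cortex Slc25a1 het (262 ± 42.8 CPM, n = 7), was larger than the SD of both neighbours.

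The differences from wild type chose these genes and are given as a description, with no test. By edgeR the log2 differences of double het from wild type in cortex were -0.49 ± 0.13 (SE) for Pcsk1n, -1.09 ± 0.36 for Scand1 and -0.55 ± 0.14 for Zfp771. In hippocampus they were 0.18 ± 0.15, 0.59 ± 0.35 and 0.22 ± 0.17, and each 95% interval included 0. Across all genes, 14 of 20394 (0.0686%) passed the test in cortex for this comparison and 2 of 20162 (0.00992%) in hippocampus. Fitted with the animal as a block, the hippocampus difference minus the cortex difference was 0.67 ± 0.11 for Pcsk1n, 1.75 ± 0.32 for Scand1 and 0.76 ± 0.13 for Zfp771, a comparison in which 5 of 21354 genes (0.0234%) were called. With the replicate number as a block, the hippocampus values alone were 0.078, 0.4 and 0.12.

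In Mrpl40 het the cortex differences were close to those of double het, but the hippocampus differences had the same sign as in cortex. They were -0.46 ± 0.13 in cortex and -0.13 ± 0.15 in hippocampus for Pcsk1n. For Scand1 they were -1.09 ± 0.35 and -0.37 ± 0.37, and for Zfp771 -0.54 ± 0.14 and -0.18 ± 0.17. Of all genes, 6 of 20394 (0.0294%) were called in cortex and 1 of 20162 (0.00496%) in hippocampus. In Slc25a1 het all 3 genes were below wild type by nearly the same amount in both tissues. The values were -0.28 ± 0.13 and -0.3 ± 0.15 for Pcsk1n, -0.55 ± 0.34 and -0.54 ± 0.37 for Scand1, and -0.32 ± 0.14 and -0.33 ± 0.17 for Zfp771. No gene was called in either tissue (0 of 20394, 0%, and 0 of 20162, with 646 and 1567 genes at an unadjusted p under 0.05). Replicate 1 was the highest hippocampus library of both single heterozygotes for each gene. It stood apart for all 3 genes in Slc25a1 het and for Scand1 alone in Mrpl40 het. Without these 2 libraries the hippocampus differences were -0.48, -1.1 and -0.52 in Slc25a1 het for Pcsk1n, Scand1 and Zfp771. In Mrpl40 het they were -0.21, -0.59 and -0.29. The highest wild-type and double het libraries, replicate 2 of each, were kept, so that this choice lowers the single heterozygotes only. With the replicate number as a block the hippocampus differences were -0.42, -0.87 and -0.45 in Slc25a1 het and -0.23, -0.57 and -0.3 in Mrpl40 het. In double het alone were the signs opposite between the tissues. All 3 genotypes share the wild-type libraries, so that these differences are not independent of each other.

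Of the markers in the 9 cell type and region lists, 1 was called in these comparisons. It was the microglia marker C1qa, at -0.31 ± 0.06 (SE, edgeR adjusted p 0.0262) in double het cortex, where 0.0686% of all genes were called. There 5 of 6 microglia markers, 6 of 6 astrocyte markers and 5 of 5 endothelial markers were below wild type, with medians of -0.12, -0.092 and -0.059 against -0.0034 over all genes. Summed microglia markers in cortex ranged from 226 to 291 CPM in wild type and from 214 to 252 CPM in double het. Astrocyte sums were 993 to 1200 and 950 to 1090 CPM, and endothelial sums 127 to 164 and 116 to 151 CPM. All 6 oligodendrocyte markers were above wild type in cortex in each heterozygous genotype, with a median log2 difference of 0.16 for Slc25a1 het, 0.3 for Mrpl40 het and 0.16 for double het. Their summed level in cortex ranged from 1680 to 2700 CPM in wild type. The range was 1830 to 3870 CPM for Slc25a1 het, 1560 to 3690 CPM for Mrpl40 het and 1710 to 3230 CPM for double het. In hippocampus all 4 choroid plexus markers tested were above wild type in each heterozygous genotype, with medians of 1.23, 1.98 and 1.94 in the same order. Their sums ranged from 20.2 to 30.9 CPM in wild type. The range was 24.9 to 43.3 CPM for Slc25a1 het, 23.1 to 72.6 CPM for Mrpl40 het and 26.1 to 97.8 CPM for double het. Without the 3 hippocampus libraries with the highest cerebellar or choroid plexus markers, the double het differences between tissues were 0.67 for Pcsk1n, 1.66 for Scand1 and 0.76 for Zfp771. Of 8 neuron markers, 5, 8 and 7 were above wild type in cortex for Slc25a1 het, Mrpl40 het and double het (medians 0.014, 0.068 and 0.06). In hippocampus 1, 6 and 7 of the 8 were above it (medians -0.14, 0.11 and 0.023). The part of these cell types in the members' differences was not tested.

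**Figure D2:**
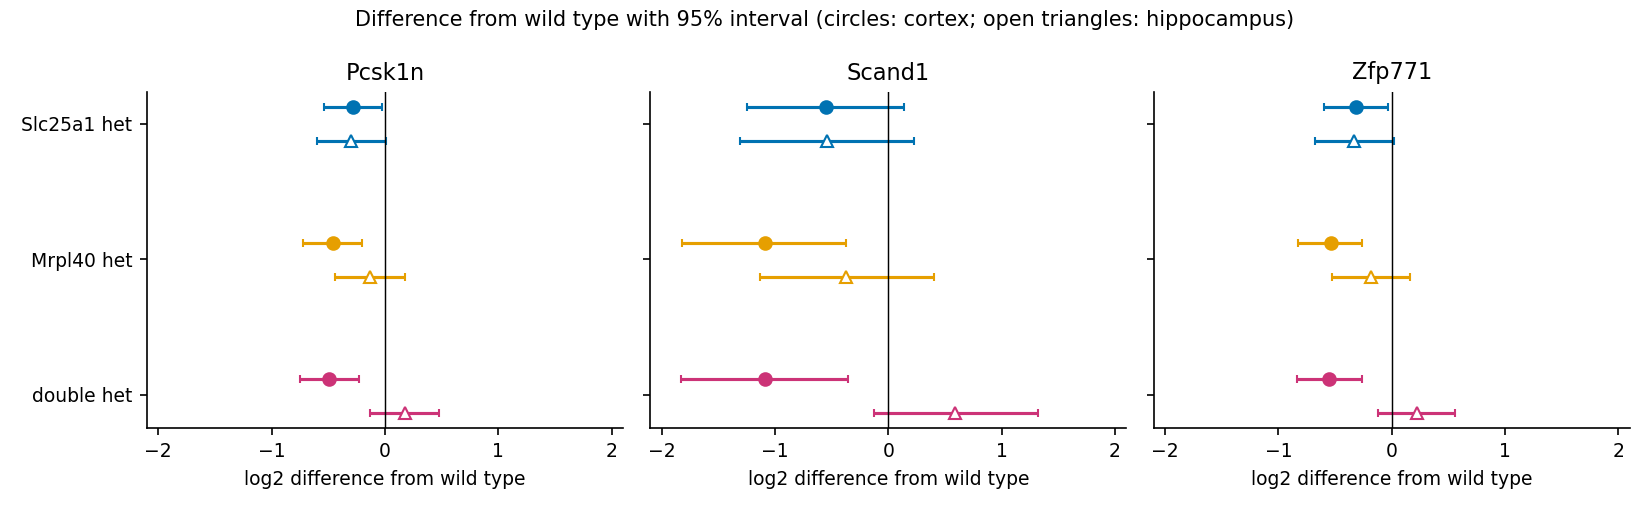
Log2 difference of each heterozygous genotype from wild type by edgeR with its 95% interval, in cortex (filled circles) and hippocampus (open triangles). In hippocampus only the double het differences lie above 0, at 0.18, 0.59 and 0.22, and their intervals include 0.

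Within animals the tissue difference could be read without comparing libraries of different mice. Pcsk1n was lower in hippocampus than in cortex in all 29 animals. The log2 difference (hippocampus minus cortex) had a median of -0.82 in 8 wild-type animals (range -1.26 to -0.56), -0.88 in 7 Slc25a1 het animals (-1.43 to -0.4), -0.53 in 7 Mrpl40 het animals (-0.77 to -0.35) and -0.17 in 7 double het animals (-0.4 to -0.09). No double het animal had as large a drop as any wild-type animal. This separation restates the contrast by which the genes were chosen, and its share over all genes was not counted.

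Zfp771 changed side with the labelled genotype. It was lower in hippocampus in 8 of 8 wild-type animals (median -0.2, range -0.83 to -0.053) and higher in 7 of 7 double het animals (median 0.43, range 0.037 to 0.64). In Slc25a1 het 6 of 7 animals were lower (median -0.39), and in Mrpl40 het 6 of 7 were higher (median 0.037). Scand1 was lower in hippocampus in 7 of 8 wild-type animals (median -0.47, range -1.73 to 0.048) and higher in 7 of 7 double het animals (median 1.35, range 0.26 to 1.64). In Slc25a1 het 5 of 7 animals were lower (median -0.49), and in Mrpl40 het 5 of 7 were higher (median 0.091). These counts restate the contrast by which the genes were chosen, and the share of all genes with such counts was not computed.

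**Figure D3:**
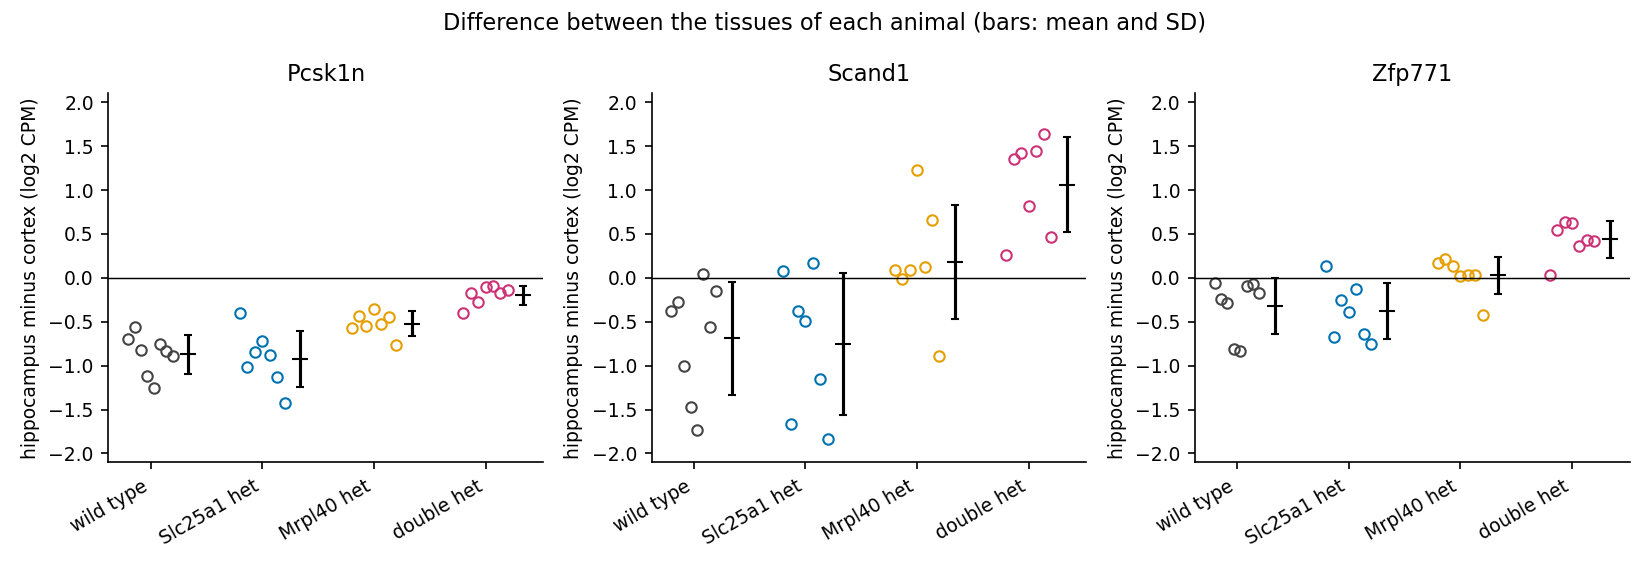
Hippocampus minus cortex in log2 CPM for each of the 29 animals with both tissues, by labelled genotype, with bars for the mean and SD. For Scand1 and Zfp771 the 7 double het animals lie above 0, and for Pcsk1n all animals lie below 0, with double het nearest to it.

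To compare the tissues independently of the genotype contrast, the mean difference over the 4 genotypes was tested with the animal as a block. Pcsk1n was lower in hippocampus by -0.63 ± 0.039 (SE) on the log2 scale (95% interval -0.7 to -0.55, edgeR adjusted p 3.13e-15). Most genes differ between these tissues, and of 21354 genes 77.5% were called, 37.7% lower and 39.8% higher in hippocampus. All 8 neuron markers lay lower in hippocampus, 7 of them called, with a median of -0.23 against 0.012 over all genes. Of 6 astrocyte markers 4 were called higher and 1 lower, and of 6 oligodendrocyte markers 5 were called higher. The part of cell types in the tissue difference of Pcsk1n was not tested. Scand1 (-0.064 ± 0.12, 95% interval -0.31 to 0.18, adjusted p 0.637) and Zfp771 (-0.058 ± 0.048, 95% interval -0.16 to 0.04, adjusted p 0.274) did not pass the test. With the length and GC content trends of each library removed, these differences were 0.04 and 0.05, and neither passed.

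Slc25a1 het was compared with Mrpl40 het because neither group enters the double het contrast. In cortex the log2 differences of Slc25a1 het from Mrpl40 het were 0.17 for Pcsk1n (95% interval -0.099 to 0.45), 0.54 for Scand1 (-0.24 to 1.33) and 0.23 for Zfp771 (-0.081 to 0.53). In hippocampus they were -0.17 (-0.49 to 0.15), -0.18 (-0.98 to 0.63) and -0.15 (-0.51 to 0.21). None of these passed the edgeR test, with adjusted p between 0.886 and 0.9 in cortex and between 0.603 and 0.852 in hippocampus. Over all genes, 5 of 20394 (0.0245%) were called in cortex and 18 of 20162 (0.0893%) in hippocampus. The hippocampus count was 0 without Slc25a1 het replicate 3, Mrpl40 het replicate 5 and double het replicate 6, in which cerebellar or choroid plexus markers were high (2406 genes at an unadjusted p under 0.05 by edgeR), and 791 with the Wald test of DESeq2. Without the 2 libraries that stand apart the hippocampus differences of the members were -0.27, -0.52 and -0.23 (edgeR adjusted p 0.281, 0.452 and 0.446). The difference between the tissues was -0.4 ± 0.11 (SE, 95% interval -0.62 to -0.17) for Pcsk1n. It was -0.89 ± 0.36 (-1.62 to -0.16) for Scand1 and -0.41 ± 0.14 (-0.69 to -0.12) for Zfp771. These intervals are not adjusted for the number of genes, and none included 0. The edgeR adjusted p of these differences were 0.211, 0.324 and 0.266. In this comparison 0 of 21354 genes (0%) were called, with 2520 at an unadjusted p under 0.05 and 37 calls by the Wald test of DESeq2. After adjustment over all genes, a difference between these genotypes was therefore not shown for any of the 3 genes. The wide intervals within each tissue do not show that the genotypes act alike.

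The 3 genes varied far more between libraries of 1 genotype than other genes of like level. The SD within genotype was 0.25 on the log2 scale for Pcsk1n in cortex, against a median of 0.0752 over 740 genes within 0.5 of its mean level, at percentile 98.9. In hippocampus it was 0.29 against 0.0913, at percentile 97.9. Scand1 had 0.73 in cortex and 0.68 in hippocampus against 0.228 and 0.249, at percentiles 99.6 and 98.5. For Zfp771 the SD were 0.29 and 0.32 against 0.119 and 0.133, at percentiles 96.6 and 95.6. A spread of this size is part of what sets the standard errors given above.

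They also varied together. After genotype means were removed, the deviations of Pcsk1n and Scand1 correlated with r = 0.92 and rho = 0.87 across 30 cortex libraries and with r = 0.88 and rho = 0.85 across 29 hippocampus libraries. For Pcsk1n and Zfp771 the values were r = 0.9 and rho = 0.87 in cortex and r = 0.92 and rho = 0.92 in hippocampus. For Scand1 and Zfp771 they were r = 0.92 and rho = 0.93 in cortex and r = 0.89 and rho = 0.85 in hippocampus. Each had a two-sided permutation p of 1e-05, the smallest that 100000 permutations can give, and an adjusted p of 0.00011 for r over 75 relations. Without the 2 libraries farthest from the median of the first gene, r lay between 0.79 and 0.95. The permutations exchange libraries within a genotype and so treat them as free of order, which the next result bears on.

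**Figure D4:**
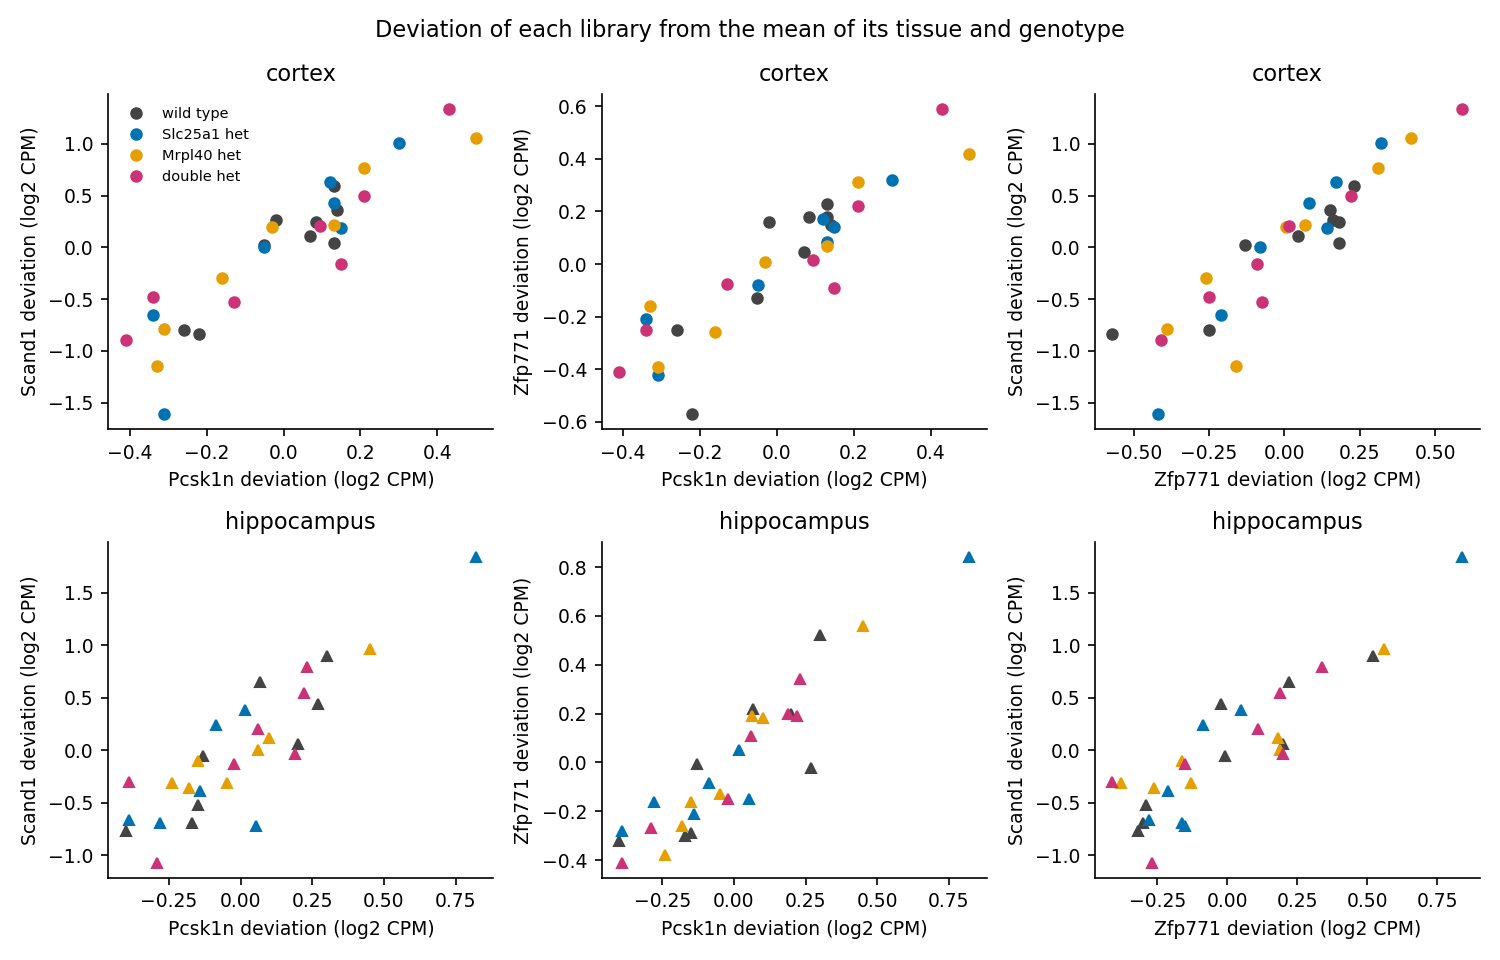
Deviation of each library from the mean of its tissue and labelled genotype in log2 CPM, for each pair of genes in cortex (circles) and hippocampus (triangles). Points of all 4 genotypes fall along the same rising line, with r between 0.88 and 0.92.

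Among 10738 genes (Scand1 and those whose mean log2 CPM was 3 or more in both tissues), Zfp771 was the gene most like Pcsk1n and the gene most like Scand1, by the lower of its cortex and hippocampus r. Pcsk1n was in turn the gene most like Zfp771 but ranked 4 for Scand1, and Scand1 ranked 3 for Pcsk1n and 2 for Zfp771. Over all these genes the median of the lower r was -0.15 for Pcsk1n and -0.11 for the others. The named genes next in likeness were Ccdc85b, a coiled-coil protein (r of 0.85 in cortex and 0.89 in hippocampus with Pcsk1n), Jund, an AP-1 transcription factor (0.83 and 0.81), Cox5a, a subunit of cytochrome c oxidase (0.8 and 0.85), and, for Scand1, the histone gene H2afj (0.88 and 0.79). Of their double het differences from wild type, the largest was that of Ccdc85b, at -0.36 in cortex and 0.074 in hippocampus. H2afj had -0.3 and 0.043, and Cox5a -0.14 and 0.058, also with opposite signs. Jund had -0.17 and -0.019. The gene rows ENSMUSG00000121606 and ENSMUSG00002076173, which carry no symbol, had r between 0.87 and 0.91 with the members that they were listed for. Their double het differences were -0.63 in cortex and 0.25 in hippocampus for the first and -1.18 and 0.57 for the second.

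In hippocampus, and less closely in cortex, the deviations of the 3 genes followed the numbers that the labels give to the libraries. A library number was the animal number in cortex and the animal number plus 31 in hippocampus. Averaged over runs of 8 numbers, all 3 genes were high in the first 2 places of cortex and the first and eighth of hippocampus. They were low in the fifth to the seventh. In hippocampus the first number of each run (4 libraries, 1 of each genotype) lay above its genotype mean by 0.45 for Pcsk1n (range 0.23 to 0.82), 1.13 for Scand1 (0.79 to 1.84) and 0.56 for Zfp771 (0.34 to 0.84), in log2 units. The fifth number of each run lay below it by -0.31, -0.53 and -0.29, and all 4 libraries were below their genotype mean for each gene. In cortex the second number had the highest mean over the runs, at 0.28, 0.79 and 0.3, and the sixth had the lowest, at -0.23, -0.63 and -0.23. Single runs differed, and in the cortex run of double het the first number was above the second for all 3 genes (0.43 against 0.21 for Pcsk1n). The fifth and sixth cortex wild-type libraries were above their mean for Scand1 (0.25 and 0.27) and Zfp771 (0.18 and 0.16). The seventh place of the cortex Slc25a1 het run was above it for Pcsk1n (0.12), Scand1 (0.63) and Zfp771 (0.17). Within a tissue, library number and animal number differ by a constant and cannot be told apart. Between tissues the same animals sit 1 place apart. The first number of a run in hippocampus and the second in cortex, the highest places for each gene, hold the same 4 animals. So do the fifth in hippocampus and the sixth in cortex. What lies behind this order was not tested. What the numbers stand for was not stated. The labels name an RNA cleanup kit in plate format, without the layout.

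**Figure D5:**
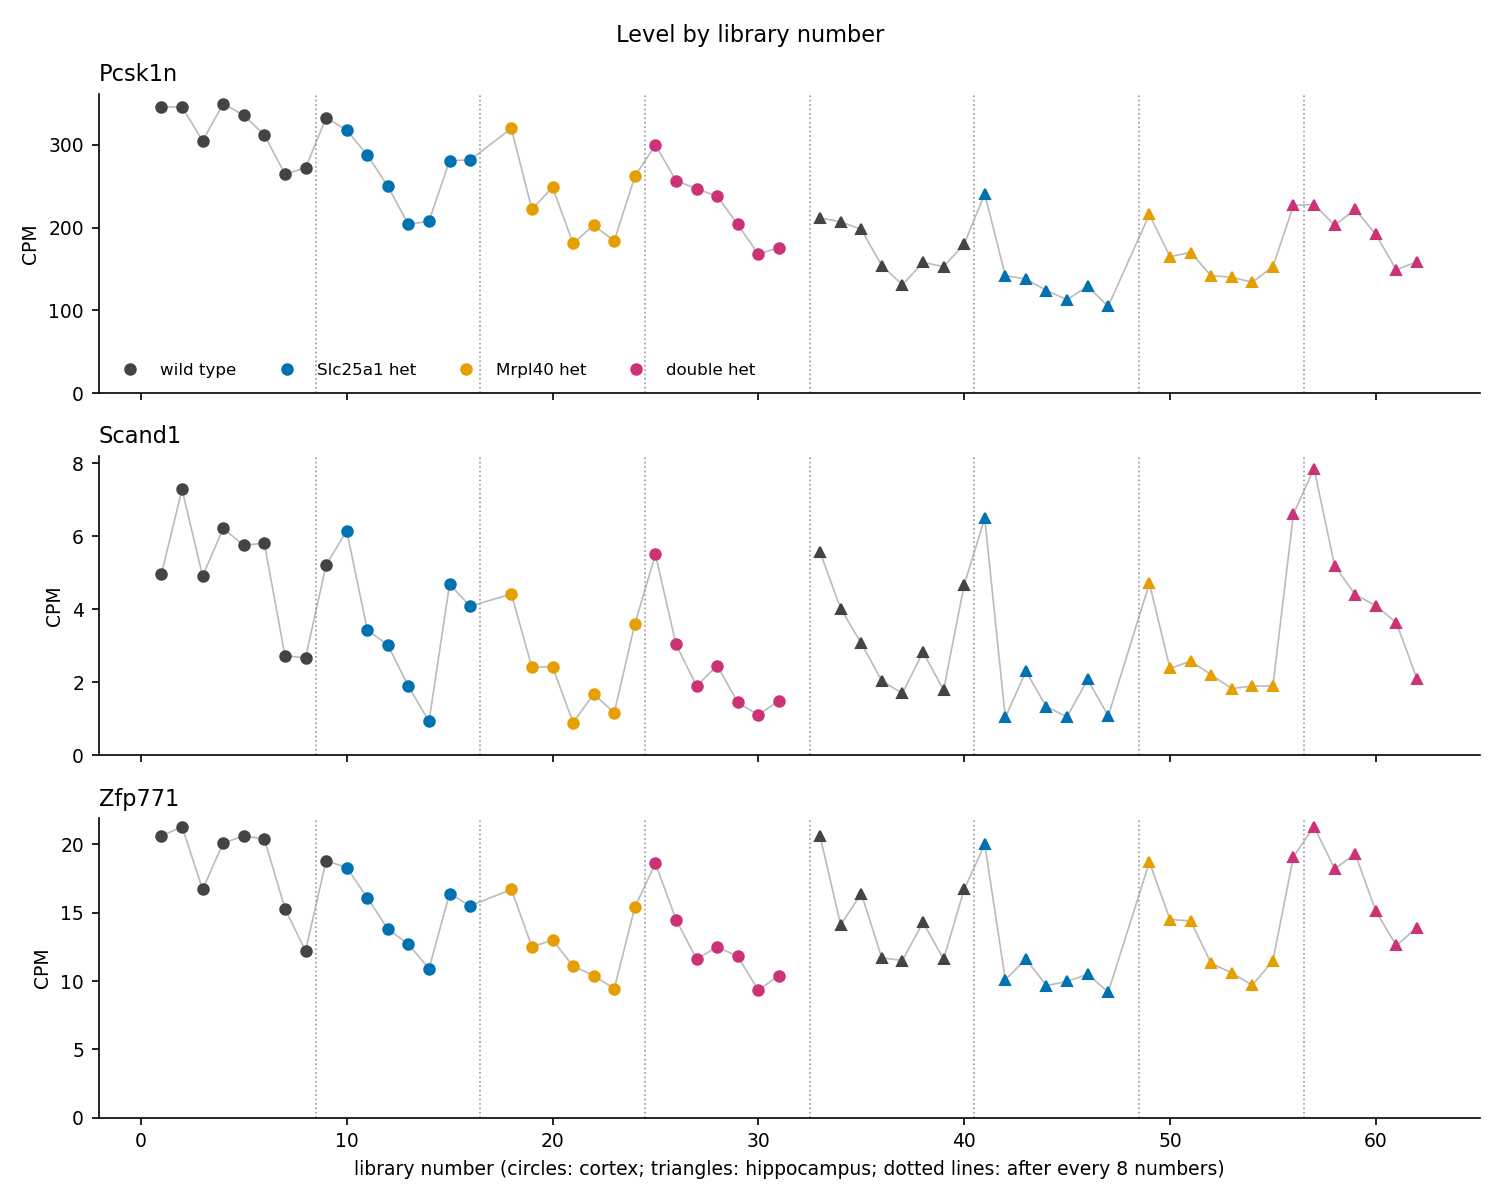
Level in CPM against library number for each gene, with cortex as circles, hippocampus as triangles, colour for the labelled genotype and dotted lines after every 8 numbers. In hippocampus each run opens near its highest value, such as 212, 241, 216 and 228 CPM for Pcsk1n, and the fifth library of each run lies below the mean of its genotype.

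The place within the run took up 60.7% of the variation within genotypes in cortex for Pcsk1n, 48.7% for Scand1 and 46.8% for Zfp771, where the median gene had 29.9% from the same number of terms. In hippocampus it took up 81%, 76.3% and 87.2%, against a median of 27.5%. With the place as a term of the edgeR fit, 4 of 20162 hippocampus genes (0.0198%) passed the test of place and 3 of the 4 were Pcsk1n, Scand1 and Zfp771, whereas the only gene called in cortex (1 of 20394, 0.0049%) was Cdkn1a, a cell cycle inhibitor. The pattern was noticed in the values of the members themselves, so that this count is a description of them. The replicate number of the labels runs nearly parallel to the place and took up 43.5% to 55.8% in cortex and 66.4% to 75.3% in hippocampus.

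Runs and genotypes coincide almost wholly. Every run held libraries of 1 genotype except the run of cortex Slc25a1 het, which began with wild-type replicate 9, and the run of hippocampus Mrpl40 het, which ended with double het replicate 1. Differences between runs and differences between genotypes therefore cannot be told apart. Within those 2 runs, the cortex wild-type library had 333 CPM of Pcsk1n against 204 to 318 in the 7 Slc25a1 het libraries. The hippocampus double het library had 227 CPM against 134 to 216 in the 7 Mrpl40 het libraries. For Zfp771 the values were 18.8 CPM against 10.9 to 18.3 and 19.1 CPM against 9.69 to 18.7. For Scand1 the cortex wild-type library, at 5.21 CPM, lay inside the Slc25a1 het range of 0.933 to 6.15, and the hippocampus double het library, at 6.61 CPM, lay above the Mrpl40 het range of 1.83 to 4.71. Each was a single library, and each held a place whose mean deviation was above 0 for all members. The first place in cortex had mean deviations of 0.21 for Pcsk1n, 0.5 for Scand1 and 0.27 for Zfp771 over 3 libraries. The eighth in hippocampus had 0.14, 0.6 and 0.2 over 2 libraries. These means include the libraries in question. By itself, cortex wild-type replicate 9 deviated from its genotype mean by 0.07, 0.11 and 0.047. Hippocampus double het replicate 1 deviated by 0.22, 0.55 and 0.19. Genotype and place therefore cannot be told apart in these 2 libraries.

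The place within the run was also added to the fit, an alternative chosen after the data were seen. The double het difference between tissues was then 0.64 ± 0.1 (SE) for Pcsk1n, 1.67 ± 0.34 for Scand1 and 0.73 ± 0.13 for Zfp771. In hippocampus the Scand1 difference of Slc25a1 het from Mrpl40 het was then -0.31 (edgeR adjusted p 0.433) against -0.18, and that of Mrpl40 het from wild type -0.25 against -0.37. With place removed, r between the members was 0.85 to 0.91 in cortex, against 0.9 to 0.92 without that step. In hippocampus it was 0.54 to 0.64, against 0.88 to 0.92. The relation between the tissues of an animal was compared without and with place removed. Across 29 animals it was r = 0.69 and rho = 0.7 for Pcsk1n (adjusted permutation p 0.00011 for r and 0.00054 for rho), r = 0.57 and rho = 0.5 for Scand1 (0.031 and 0.07) and r = 0.61 and rho = 0.59 for Zfp771 (0.0082 and 0.017). With place removed, r was 0.23, 0.078 and 0.14, with adjusted permutation p of 0.35, 0.72 and 0.53. Place groups the same animals in both tissues, so that removing it also removes what those animals share. The fall in r therefore cannot show whether the relation holds.

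None of the relations of the members with library slopes or marker sums had an adjusted permutation p under 0.05. The slope of each library on GC content correlated with r = 0.44 for Pcsk1n, 0.31 for Scand1 and 0.49 for Zfp771 in cortex (adjusted permutation p 0.081, 0.39 and 0.069) and with 0.25, 0.056 and 0.21 in hippocampus (0.6, 0.91 and 0.66). In cortex, summed oligodendrocyte markers correlated with r = -0.51 for Pcsk1n (adjusted permutation p 0.087), the lowest adjusted p among all relations with marker lists, and without the 2 farthest libraries with -0.34. Summed neuron markers had r of 0.096 in cortex and 0.33 in hippocampus with Pcsk1n (0.83 and 0.39).

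The other genes around proSAAS were compared with it across libraries. Of 16 genes for prohormone processing and the proSAAS receptors, 5 correlated positively with Pcsk1n in both tissues and 3 negatively, with medians of -0.025 in cortex and 0.078 in hippocampus, near the medians of all genes (0.0055 and -0.0057). The highest lower r was 0.23, for Pcsk2, the second neuroendocrine convertase. None of the 16 genes and none of 5 granins passed the test for any genotype against wild type in either tissue, where between 0% and 0.0686% of all genes did. The median difference of the 16 between double het and wild type was 0.0048 in cortex and 0.015 in hippocampus, against -0.0034 and -0.0029 over all genes tested.

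Between tissues these genes moved in both directions. Averaged over genotypes, 7 of the 16 were called higher in hippocampus and 8 lower, where 39.8% of all genes were called higher and 37.7% lower, and their median was -0.048 against 0.012 over all genes. Pcsk1, the convertase that proSAAS inhibits, had the log2 difference -2.37 ± 0.08 (SE), with 75.6 ± 14.8 CPM in cortex (SD, n = 30) and 14.9 ± 5.04 CPM in hippocampus (SD, n = 29). Pcsk2 fell by 0.84 on the log2 scale, Scg5, the chaperone of that enzyme, by 1.06, and Gpr83, the receptor of PEN, by 1.22. Gpr171, the receptor of BigLEN, was higher in hippocampus by 0.54 ± 0.074. Pam, which amidates peptides, had -0.48, and Pcsk6, a convertase of the constitutive pathway, had 0.78. Of the granins, acidic proteins of secretory granules, 2 of 5 were higher and 3 lower (39.8% and 37.7% of all genes), from -1.45 for Vgf and -0.57 for Chga to 0.21 for Chgb. All differences named here had an edgeR adjusted p of 0.00605 or less.

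The SCAN and zinc finger genes were set beside Scand1 and Zfp771 in the same way. Among 29 tested SCAN domain genes, none passed for any genotype against wild type, again beside 0% to 0.0686% of all genes. The median r with Scand1 was 0.11 in cortex and -0.081 in hippocampus, and the nearest member was Zkscan2 with a lower r of 0.33. Zfp24, a SCAN factor known to bind other SCAN proteins, had 0.16 ± 0.017 between tissues (edgeR adjusted p 1.81e-10). Over the tissues 14 of the 29 were called higher and 9 lower, beside 39.8% and 37.7% of all genes, led by Zkscan17 at -0.77. Of the other genes named Zfp with a number, a symbol given mostly to zinc finger genes of the C2H2 class, 339 were tested in cortex and 340 in hippocampus, and 1 passed in double het cortex, Zfp467 at -0.27 ± 0.056 (adjusted p 0.0401), named after its value was seen. Zfp580 was the nearest of them to Zfp771, with a lower r of 0.68, against medians of 0.073 in cortex and -0.045 in hippocampus. Between tissues 178 of 341 were called higher in hippocampus and 88 lower, beside 39.8% and 37.7% of all genes, with a median of 0.087 against 0.012 over all genes.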

How the data were processed

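The authors deposited a table of raw, unscaled counts for every gene and library. A second deposited table holds normalized counts (unit: signal), in which each library's counts are scaled by a single factor (largest relative range within a library 9.85e-10). The submitters' processing notes name FastQC, HISAT2, featureCounts, DESeq2 and the builds mm39 and GRCm39, without settings. Groups came from the labels, and the animal number in the labels pairs the tissues. The headers of the count table gave the same tissue, genotype and animal for all 59 libraries. The members and gene lists were chosen with earlier results of these data known.

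Counts were analysed with edgeR 4.0.16 in R 4.3.3 (quasi-likelihood test, TMM, filter on low counts, robust dispersion, Benjamini-Hochberg adjustment over all genes tested, false discovery rate 0.05), with all genotypes of a tissue together, or with the animal as a block between tissues. Correlations used log2 CPM (prior count 2) with genotype means removed and 100000 permutations within genotype. Intervals are 95% intervals. Depth was similar over libraries and bears mainly on Scand1. Replicates are separate animals per the labels. Pipelines were tested on simulated data. Transcript length and GC values are those of GENCODE vM21 (build GRCm38), with values for 97% of tested genes, and promoters from RefSeq (GRCm38.p6), which matched all 3 members.

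Named genes were the members, up to 6 genes per list (those past the test by smallest p, then genes related to a member), the next tested gene on each side, the 5 most alike genes per member, Slc25a1 and Mrpl40. Others were named after their values were seen. Alternatives were DESeq2 1.42.0 (size factors, Wald test), no filter, length and GC trends removed by splines with 5 degrees of freedom, a replicate block by number, the paired fit with its block removed, and fits without the 6 animals that Slc25a1 counts place in another group than their label. For correlations they were the deposited normalized counts on a log2 scale with pseudocount 1, trends removed, and the 2 farthest samples left out. Chosen after seeing the data were the place of the library number in runs of 8 as a term, and fits without 2 hippocampus libraries that stand apart or 3 with high cerebellar or choroid plexus markers. Figures were drawn with Python 3.11.15 and matplotlib 3.10.9.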

Additional observations from a re-analysis of the deposited data

Results flagged for a closer look

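In hippocampus Slc25a1 het, replicate 1 stood far above the other 6 libraries for each of the 3 genes. It had 241 CPM of Pcsk1n where the next library had 142 CPM, 6.49 CPM of Scand1 where the next had 2.3 CPM, and 20 CPM of Zfp771 where the next had 11.6 CPM. In hippocampus Mrpl40 het, replicate 1 had 4.71 CPM of Scand1 where the next library had 2.58 CPM. In all, 4 of 24 combinations of gene and group had such a library, where chance gives about 1 in 20, and the 3 genes are not independent of each other. Both libraries carry the first number of a run of 8. In the fit without these 2 libraries the highest wild-type library was kept. The Slc25a1 het difference from wild type in hippocampus was then -0.48 for Pcsk1n and -1.1 for Scand1, against -0.3 and -0.54 with them. The double het differences between tissues were 0.68 for Pcsk1n and 1.76 for Scand1 without them.

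For Zfp771 the tissue difference had opposite signs in wild type and double het: all 8 wild-type animals were lower in hippocampus and all 7 double het animals higher, and the means differed by 0.76 on the log2 scale. The difference was not tested, because the gene was chosen by it.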

How the results depend on the processing

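The tested differences between tissues and between Slc25a1 het and Mrpl40 het kept their side of the threshold for each member under every alternative that gave an adjusted p, while the correlations between the tissues of an animal did not. Signs turned in 3 cases, none of them called: with length and GC trends removed the mean tissue difference was 0.04 for Scand1 (adjusted p 0.744) and 0.05 for Zfp771 (adjusted p 0.241), and without the animal block the Scand1 tissue difference of Slc25a1 het from wild type was 0.0049. DESeq2 gave no adjusted p for Scand1 in Slc25a1 het against Mrpl40 het, in hippocampus or between tissues. Without the 6 animals that Slc25a1 counts place against their label, the double het differences between tissues were 0.59 for Pcsk1n, 1.51 for Scand1 and 0.72 for Zfp771, and with trends removed that of Zfp771 was 0.56. Counts of genes called moved in 3 comparisons of Slc25a1 het with Mrpl40 het. In cortex, 5 became 13 with the DESeq2 Wald test and 9 with place as a term. In hippocampus, 18 became 791 with the Wald test, 35 with no filter, 260 with trends removed, 4 without the 6 animals, 10 with place as a term, 8 without the 2 libraries that stand apart and 0 without the 3 with high markers (2406 genes at an unadjusted p under 0.05, edgeR). Between tissues, 0 became 37 with the Wald test and 2 with no filter. With place removed, r between the tissues of an animal was 0.23, 0.078 and 0.14 for Pcsk1n, Scand1 and Zfp771 (adjusted permutation p 0.35, 0.72 and 0.53). That term groups the same animals in both tissues and also removes what they share. The cause of these changes was not tested. The labels do not say that replicate numbers pair animals of different genotypes. Per pair, deviations over 5000 genes correlated between -0.48 and 0.54, with medians between -0.12 and 0.33, and for both tissues of the same animal between -0.029 and 0.41, so that this check does not show whether the numbers pair them. With the replicate number as a block, 410 of 20162 genes were called in hippocampus for Slc25a1 het against Mrpl40 het. The main fit called 18 (0.0893%) there. With the same block, the double het difference from wild type in hippocampus was 0.078 for Pcsk1n, 0.4 for Scand1 and 0.12 for Zfp771. Depth limits Scand1 most, at 27 to 208 counts per library.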
